A study of Homo sapiens with 6 samples.

Results

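The genes examined here encode the proteins of the cytosolic ribosome. They were taken by name as FAU and the genes whose symbol is RPL or RPS followed by a number, with probes of several symbols, S6 kinases and Y-linked genes left out. This gave 78 probes for 53 genes, 31 of the large and 22 of the small subunit, among 11304 single-gene probes for 8987 genes and 14080 probes in all. The naming rule uses no measured value, but the set was proposed with earlier results of these data known. On all 6 arrays 74 of these probes and 52 of these genes were measured, 30 of the large and 22 of the small subunit, against 8725 genes in all. RPL21, whose only probe lacked a 1 h value, is the gene left out.

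The series holds 6 two-colour arrays of GM00156, a human cell line of the Coriell repository. Cells were incubated for 10 h with or without emetine at 100 µg/ml. Actinomycin D at 5 µg/ml was then added to treated and untreated cells alike, and harvests followed, the first directly (0 min) and the others after 10 min, 30 min, 1 h or 8 h. Each of these 5 arrays set RNA of emetine-treated cells (Cy3) against RNA of untreated cells (Cy5) of the same harvest, and the remaining array set treated RNA of the 0 min harvest against itself (self-self). The entry for the self-self array does not mention actinomycin D. The entry for the 0 min array conflicts with itself, because its channels are named for treated and for untreated cells whereas its description has treated RNA in each channel. Over the 52 genes the 0 min array correlated at r = 0.92 with the 10 min array, and over all genes at r = 0.90. These values run across genes of the same slides and are a description.

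Each harvest had 1 array and no replicate, no dyes were swapped, and the labels do not tell whether the harvests came from separate cultures. All p-values below measure the spread between harvests. The values are log2 ratios of a sample to its reference, but the labels do not state which channel is the numerator. Sides are therefore called negative and positive and no direction of change is drawn. With the ratio turned over, every sign would turn. The labels give no cell type, and ratios carry no level against which it could be checked. Of 13 fibroblast markers, the fit described below called 9 negative and 1 positive. B lymphocyte markers gave 3 positive and 0 negative of 8, markers of T and NK cells 2 and 0 of 6, and epithelial markers 2 and 1 of 5, with their parts in the results not tested. Among all genes 25.3% were called negative and 37.1% positive.

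A ribosome joins a small subunit, which reads the mRNA, with a large subunit, which forms the peptide bond. Their proteins are needed in equal numbers, and their mRNAs are abundant and long-lived in most cells. Many of these mRNAs begin with a C and an unbroken run of pyrimidines, the 5′ terminal oligopyrimidine (TOP) tract, which lets growth signals switch their translation on and off together. Emetine binds the small subunit and stops the ribosome from moving along the mRNA, and actinomycin D stops RNA synthesis.

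The start of each transcript shows how alike these genes are in that feature, so 30 bases around the RefSeq start are printed for genes from both ends of the range of ratios. Windows were held for 44 of the 53 genes in the RefSeq promoter table of build GRCh38.p14. RPL23, RPL23A, RPL37, RPL3L, RPL5, RPL7, RPS15A, RPS2 and RPS20 had no entry. Each window has 10 bases before the start, which are promoter, and 20 from the start on, which are the first bases of the first exon. Sequences read 5′ to 3′ on the gene's own strand, and capitals mark the run of pyrimidines where the first base is C. The first 5 genes below were on the positive side with a tract, RPL17 was on the positive side without one, the next 5 were on the negative side with a tract, and RPL9 and RPS4X were on the negative side without one.
RPS12 (chr6:132814559-132814588, plus strand): cggatgaggcCTCTTTCCCTgccgccgccg
RPL28 (chr19:55385922-55385951, plus strand): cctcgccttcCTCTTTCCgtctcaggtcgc
RPS10 (chr6:34426050-34426079, minus strand): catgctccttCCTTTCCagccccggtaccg
RPS3 (chr11:75399508-75399537, plus strand): cgagccacttCCTTTCCTTTCagcggagcg
RPL13 (chr16:89560672-89560701, plus strand): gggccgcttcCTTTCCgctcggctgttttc
RPL17 (chr18:49492446-49492475, minus strand): ttccctaagcagcctgaggtgagtgtttct
FAU (chr11:65122115-65122144, minus strand): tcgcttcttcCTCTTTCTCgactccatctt
RPS23 (chr5:82278335-82278364, minus strand): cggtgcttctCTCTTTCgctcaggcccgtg
RPL35A (chr3:197950180-197950209, plus strand): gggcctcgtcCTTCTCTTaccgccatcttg
RPL27A (chr11:8682782-8682811, plus strand): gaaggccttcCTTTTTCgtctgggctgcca
RPL39 (chrX:119791611-119791640, minus strand): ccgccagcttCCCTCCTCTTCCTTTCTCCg
RPL9 (chr4:39458903-39458932, minus strand): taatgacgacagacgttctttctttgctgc
RPS4X (chrX:72277229-72277258, minus strand): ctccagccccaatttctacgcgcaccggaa

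A tract, taken as a C at a listed start followed directly by at least 4 pyrimidines on the gene's strand, was present in 33 of the 44 genes (75%). Among all genes held by RefSeq in this way, 1404 of 27305 genes (5.14%) had it at any of their starts. Among those measured on all arrays it was 523 of 7121 (7.34%). It stood in 21 of 30 windowed genes called on the negative side, in 5 of 6 called on the positive side and in 6 of 7 not called. The median of the mean log ratio was -0.59 over 32 measured genes with the tract and -0.61 over 11 without it. RPS12 and FAU, which lie at opposite ends of the range of ratios, begin with the same 7 bases CTCTTTC. These letters at a start were found in 8 of the 44 genes (FAU, RPL10, RPL18, RPL28, RPL35, RPS12, RPS23 and RPS9) and in 0.165% of all genes. A match is a description of the listed start, and 9 of the 44 genes have more than 1 start in the table.

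Most ribosomal protein genes formed a band on the negative side, and a few lay far above it. The mean log ratio over the 5 harvests was tested with limma across all 8725 genes at a Benjamini-Hochberg adjusted p of 0.05, which called 34 of 52 genes negative and 7 positive and left 11 not called. Among all genes 25.3% were called negative and 37.1% positive, against 65.4% and 13.5% of the ribosomal protein genes. Their median was -0.55 against 0.14 for all genes, and their quartiles were -0.73 and -0.16. The mean was below -1 in FAU alone and above 1 in RPL28 and RPS12. Each of the 7 positive genes rests on 1 probe measured on all arrays, as do many of the negative genes.

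**Figure D1:**
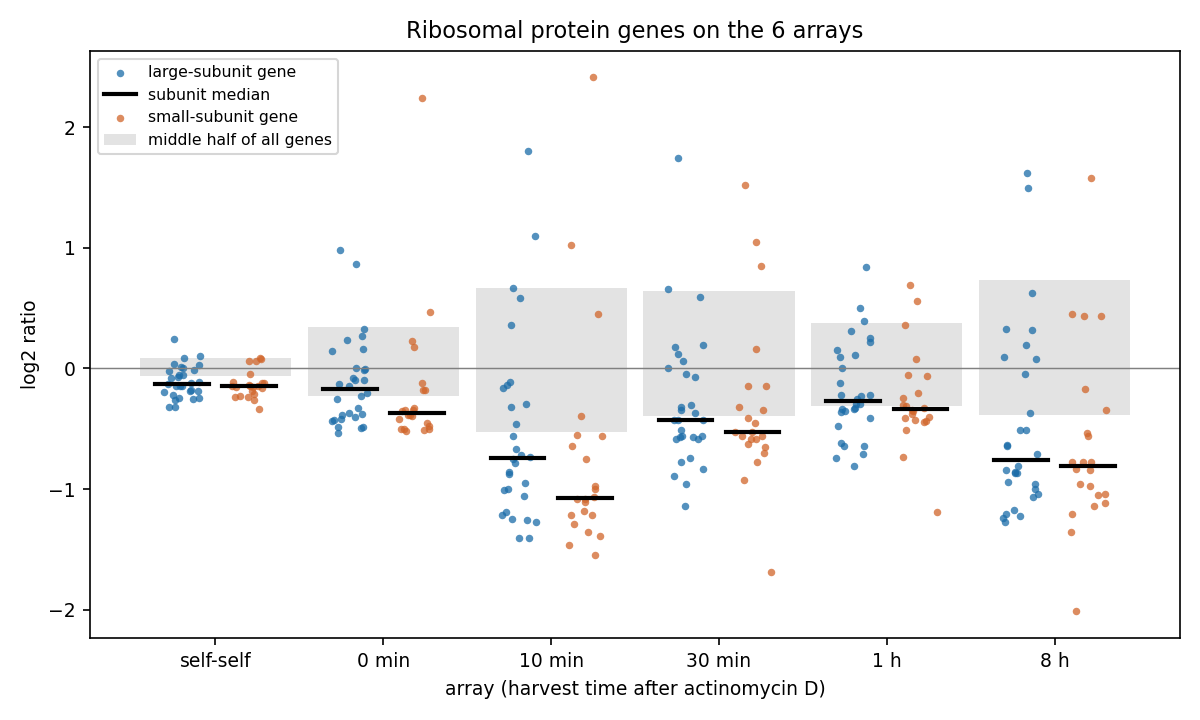
Log2 ratios of 30 large-subunit (blue) and 22 small-subunit (orange) genes on each array, with subunit medians (black bars) and the interquartile range of all 8725 genes (grey). The dense part of each subunit lies below 0 on every harvest, the lowest point at 8 h is FAU at -2.01, and the highest at 10 min is RPS12 at 2.41.

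The band was seen on every harvest. Medians over the 52 genes were -0.33, -0.87, -0.44, -0.31 and -0.79 at 0, 10 and 30 min, 1 h and 8 h, against 0.06, 0.11, 0.16, 0.07 and 0.18 for all genes. Their place among all genes ran from the 13.3 percentile at 8 h to the 25.1 percentile at 1 h. On the self-self array the 52 genes also leaned to the negative side, with a median of -0.14 against 0.01 for all genes and 41 of 52 below 0. That median lay at the 7.98 percentile of all genes, a lower place than on any harvest. With each gene's self-self value subtracted, the median over the harvests was -0.37 against 0.10 for all genes. In that setting 27 genes were called negative and 7 positive, beside 24.1% and 32.7% of all genes. Subtraction takes the 1 self-self value of a gene as free of error, so these calls leave out the noise of that array. Across the 52 genes the self-self value and the mean correlated at r = 0.57, and across all genes at r = 0.24. These points share slides and dyes.

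Limits bear on these counts. With the self-self array in the fit as the level to compare with, limma called 0 of the 52 genes (lowest adjusted p = 0.157, 5 genes at an unadjusted p under 0.05) and 1 of all genes. Centring each array on its median shifts the median of all genes from 0.14 to 0.02. With it 36 genes of the set were negative and 5 positive, beside 30.6% and 29.0% of all genes. The positive share of all calls went from 59.4% to 48.6%.

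The small subunit holds both extremes of the set. Of its 22 genes 15 were called negative and 3 positive, with a median of -0.64. FAU encodes a ubiquitin-like protein fused to the ribosomal protein S30, which is cut free after synthesis. Over the harvests in order of time its values were -0.45, -1.55, -1.69, -1.19 and -2.01, with -0.05 on the self-self array. Its mean was -1.38 (SE 0.16, 5 arrays, limma adjusted p = 0.000484), at the 1.42 percentile of all genes. FAU was the lowest of the 52 genes on all harvests but the first, where RPL9 was lowest. Its 30 min value was below its 10 min value, unlike the median gene of the set.

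RPS12 lay at the other end of the small subunit. In the same order of harvests this component of the 40S head stood at 2.24, 2.41, 1.52, 0.56 and 1.58, and at 0.09 on the self-self array. Its mean was 1.66 (SE 0.23, 5 arrays, limma adjusted p = 0.000689), at the 96.5 percentile of all genes. It was the highest of the 52 genes at 0 and 10 min and stood below RPL28 and RPS10 at 1 h. RPS10, a head protein that is marked with ubiquitin on collided ribosomes, stood at 0.47, 1.02, 1.05, 0.69 and 0.43 (mean 0.73, SE 0.13, limma adjusted p = 0.00238). RPS3, which lines the mRNA entry channel, was positive on all harvests with values from 0.18 at 0 min to 0.85 at 30 min (mean 0.46, SE 0.13, limma adjusted p = 0.0148). These values are of 1 probe. The other RPS3 probe, which lacks an 8 h value, read -0.05, 0.28, 0.18 and 0.04 at the remaining harvests.

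Between these extremes the small-subunit genes were close to one another. RPS23, a protein of the decoding centre, stood at -0.52, -1.06, -0.92, -0.73 and -1.35, with a mean of -0.92 (SE 0.12, limma adjusted p = 0.000622). RPS20, RPS15A, RPS14 and RPS24 had means of -0.84, -0.80, -0.79 and -0.77. RPS14 is the gene whose loss underlies the anaemia of the 5q deletion, and RPS24 and RPS19 are among the genes altered in Diamond-Blackfan anaemia; RPS19 was at -0.64. All 6 of these genes were below 0 on all 5 harvests. RPS27 (-0.35, adjusted p = 0.0532), RPS2 (-0.22), RPS9 (-0.17) and RPS21 (-0.14) were not called. RPS27 was called negative with the median of its probes, after centring or scaling of the arrays, and without the 1 h array, where its adjusted p passed 0.05. RPS21 was negative up to 1 h and at 0.44 at 8 h.

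**Figure D2:**
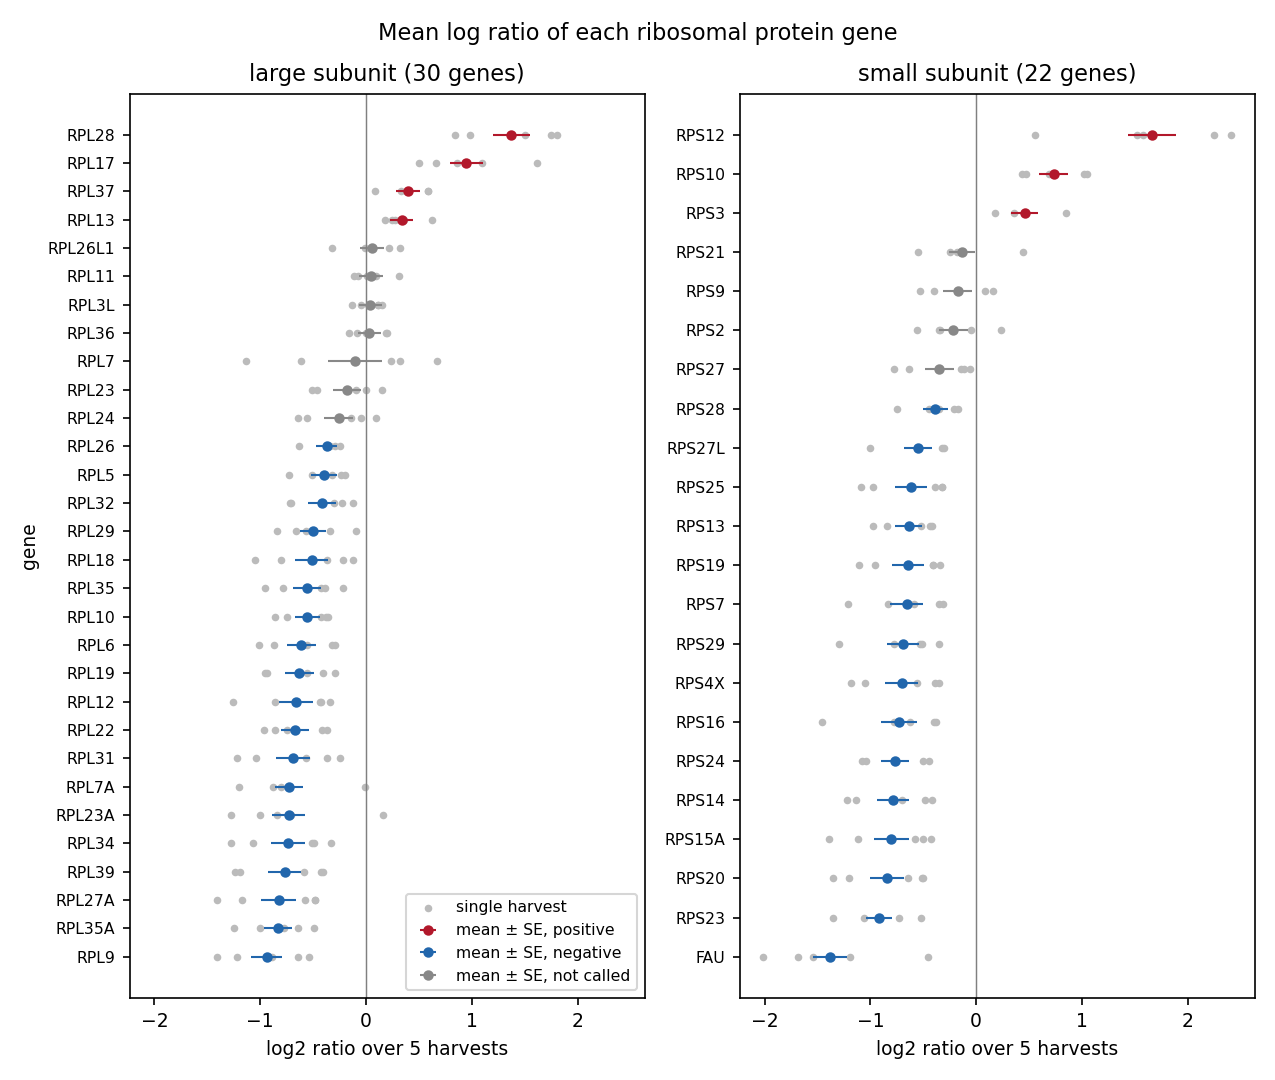
Mean log2 ratio ± SE over 5 harvests for each gene of the large (left) and small (right) subunit, with single harvests as grey points and colours for the limma call. RPS12 at 1.66 and RPL28 at 1.38 are far from the blue negative band, and FAU at -1.38 lies below the next gene, RPL9 at -0.94.

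Of the 30 large-subunit genes 19 were called negative and 4 positive, with a median of -0.51. RPL9, a protein near the site where translation factors bind, was the lowest, at -0.54, -1.41, -0.89, -0.65 and -1.22 (mean -0.94, SE 0.15, 5 arrays, limma adjusted p = 0.00129). RPL35A, RPL27A, RPL39 and RPL34 followed at -0.83, -0.82, -0.77 and -0.73. RPL39 is a very small protein that lines the exit tunnel of the nascent chain. RPL23A, which sits at the tunnel exit where the signal recognition particle docks, was at 0.16 at 0 min and between -0.71 and -1.28 later (mean -0.73, SE 0.15). RPL7A was at -0.01 at 0 min and between -0.74 and -1.20 later, but its 0 min value averages probes at -0.66 and 0.63.

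The positive genes of the large subunit were led by RPL28. It stood at 0.98, 1.80, 1.74, 0.84 and 1.499 and at 0.03 on the self-self array (mean 1.38, SE 0.17, 5 arrays, limma adjusted p = 0.000539). RPL17, which reaches into the exit tunnel, stood at 0.86, 1.10, 0.66, 0.50 and 1.62 (mean 0.95, SE 0.15, limma adjusted p = 0.00139). Its other probe, which lacks a 10 min value, read 1.11, 0.29, 0.65 and 1.74 at the remaining harvests. RPL37 and RPL13 were smaller, at 0.39 (SE 0.11, adjusted p = 0.0168) and 0.34 (SE 0.11, adjusted p = 0.0265). The calls of RPL37 and RPL13 were lost after centring and without the 10 min array, and that of RPL13 also without the 8 h array. Without the 30 min array 4 genes were called positive in place of 7, as RPL37, RPL13 and RPS3 were not called.

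Close to 0 lay genes of different kinds, given here beside the called genes RPL5 and RPL12. RPL11 and RPL5 travel together with the smallest rRNA and can hold MDM2, the ubiquitin ligase of p53. RPL11 was not called (0.04, SE 0.11), whereas RPL5 was at -0.40 (SE 0.12, limma adjusted p = 0.0226). RPL5 averages probes at -0.54 and -0.26, and the difference between RPL5 and RPL11 was not tested. RPL7 was the least regular gene, at 0.23, 0.67, -1.14, -0.62 and 0.32 over the harvests and at 0.24, the highest of the 52 genes, on the self-self array (mean -0.11, SE 0.26). RPL12, known for a splice form that nonsense-mediated decay removes, was at -0.66 (SE 0.16, limma adjusted p = 0.00801), inside the band. RPL24, RPL23 and RPL36 were not called, at -0.26, -0.18 and 0.03.

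Paralog forms of ribosomal proteins are given beside their main genes where both were measured. RPL3L, the striated muscle form of RPL3, was not called, with a mean of 0.04 and harvests between -0.13 and 0.15. RPL26L1 was not called either, at 0.05 (SE 0.11), and RPL26 was at -0.37 (SE 0.10, limma adjusted p = 0.0142). At 8 h RPL26L1 stood at 0.32 and RPL26 at -0.63. RPS27L, a p53-induced relative of RPS27, was at -0.55 (SE 0.14, limma adjusted p = 0.00865) beside -0.35 for RPS27. With the self-self value subtracted RPS27L was at -0.32 and not called. RPS4X, the X-linked form of a small-subunit protein, was at -0.71 (SE 0.15, limma adjusted p = 0.00507), inside the band. Near-identical paralogs and processed pseudogenes of this family may share a clone's signal, which was not tested. The differences within these pairs were not tested.

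The subunits were compared by their medians. The large-subunit median exceeded that of the small subunit by 0.20, 0.33, 0.10, 0.07 and 0.05 at 0, 10 and 30 min, 1 h and 8 h, and by 0.02 on the self-self array. For the mean over the harvests the medians were -0.51 and -0.64, a difference of 0.13 with an SD of 0.12 over the harvests. The interquartile range of the means ran from -0.68 to -0.0037 in the large and from -0.76 to -0.25 in the small subunit, so the subunits overlapped over most of their ranges. The shares called negative were 63.3% and 68.2%, and the shares called positive 13.3% and 13.6%.

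**Figure D3:**
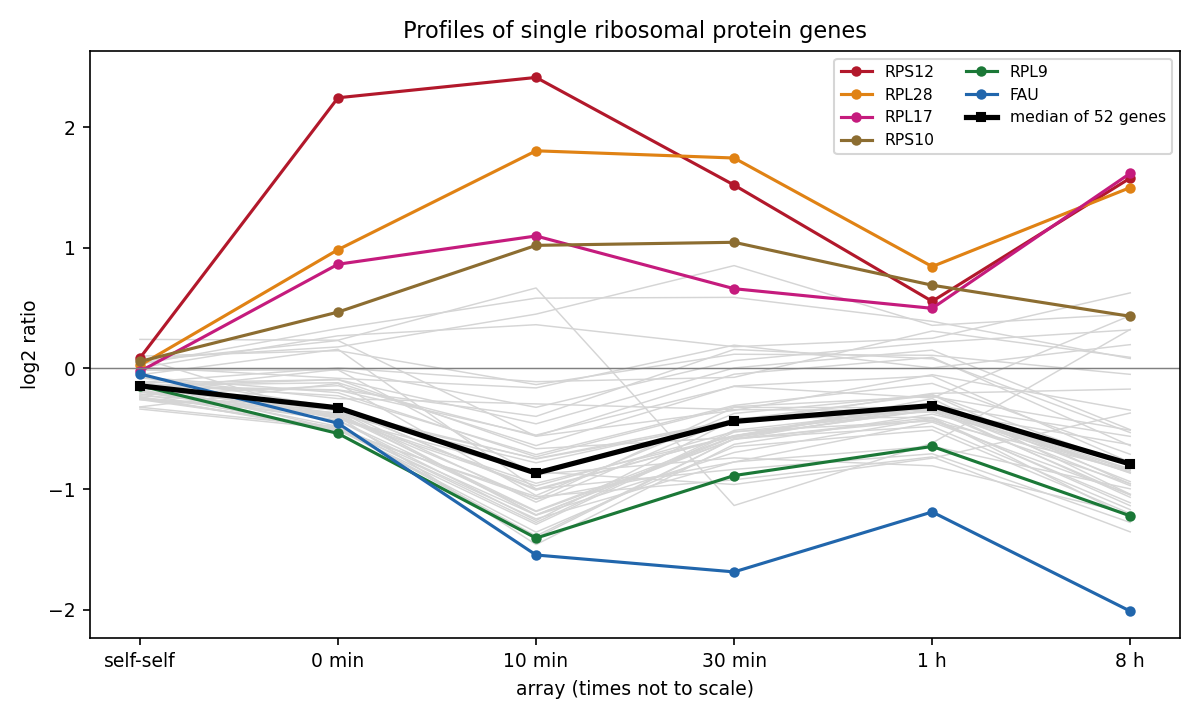
Log2 ratio of single genes across the 6 arrays, with the median of the 52 genes in black and all others in grey. The black line is lowest at 10 min (-0.87) and 8 h (-0.79), while RPS12 runs from 2.24 at 0 min to 0.56 at 1 h.

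The central 99% of the self-self array, from -0.28 to 0.43 over all genes, gives the width set by labelling and hybridisation of 1 RNA. On the self-self array itself 3 of the 52 genes already lay below this range and 0 above it. At 0 min 27 of the 52 genes lay below it and 4 above (21.4% and 20.3% of all genes). At 10 min 41 lay below and 7 above (33.7% and 35.9%), and at 30 min 36 and 6 (29.8% and 35.9%). At 1 h 29 lay below and 4 above (26.7% and 21.7%), and at 8 h 38 and 7 (28.9% and 36.6%). These counts hang on the scale of the arrays. Scaling all arrays to equal spread, self-self included, also widens the self-self range. It left 0 of the 52 genes below the range at each harvest, and from 0.607% to 1.74% of all genes. With a limit of 1 log2 unit the counts below it were 0, 21, 2, 1 and 14 in order of harvest. The shares of all genes were 0.768%, 12.5%, 7.23%, 3.54% and 8.65%. No test goes with these counts.

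On all 5 harvests 24 genes lay below that range (13.1% of all genes) and 4 above it (12.1%). After that scaling both counts were 0, as they were with a limit of 1 log2 unit. Because that scaling gives the self-self array the spread of the harvests, the 0 after it says little about these genes. The 4 were RPS12, RPS10, RPL28 and RPL17. Those below it comprised 14 of 22 small-subunit and 10 of 30 large-subunit genes. The sign was negative on all 5 harvests for 34 genes (25.4% of all genes) and positive for 7 (37.8%). The 5 arrays share a dye orientation and may share cultures, so equal signs are no measure of reproducibility.

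The ratios of the set did not follow the clock evenly. From 0 to 10 min the log ratio was lower in 44 of 52 genes (49.9% of all genes), and from 10 to 30 min it was higher in 44 (60.2%). From 30 min to 1 h it was higher in 39 genes (42.4%), and from 1 to 8 h lower in 41 (43.5%). All 4 steps in this order were seen in 33 genes (15.6% of all genes), 19 of the large and 14 of the small subunit. This order is that of the set's own medians, which favours the set over all genes. The counts of steps are therefore a description and no test. The median steps were -0.55, 0.41, 0.15 and -0.51, against 0.00, 0.09, -0.07 and 0.09 for all genes. The arrays also differ in spread, with robust SDs over all genes of 0.42, 0.88, 0.76, 0.50 and 0.83. After scaling to equal spread, an alternative chosen after seeing the data, 22 genes had all 4 steps (8.16% of all genes). The set's medians, in units of each array's robust SD, were -0.77, -0.99, -0.58, -0.61 and -0.96. On the self-self array the median in that unit was -1.28.

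A straight trend was fitted on log2(1 + min / 10). It was called for 0 of 52 ribosomal protein genes with limma (0.0115% of all genes, which is 1 gene), and 3 of the 52 had an unadjusted p under 0.05. By their tests the most negative slopes were -0.21 for FAU (SE 0.08, adjusted p = 0.293), -0.19 for RPL23A (SE 0.08, adjusted p = 0.316) and -0.17 for RPL7A (SE 0.07, adjusted p = 0.296). The largest positive slope by its test was 0.14 for RPS21 (SE 0.06, adjusted p = 0.375). RPL26L1 followed at 0.09 and RPL17 at 0.11. Without the 1 h array the trend was called for 53 genes with a negative and 467 with a positive slope among all genes, and for 0 of the ribosomal protein genes.

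Several probes of the same gene show how well a value repeats within a slide. Of 14 genes with more than 1 measured probe, 12 had a pair whose means differed by a median of 0.26, from 0.06 in RPL23A to 0.73 in RPL10. RPL10, which joins the large subunit late and is needed for subunit joining, had probes at -0.92 and -0.19. The probes of RPS28 were at -0.67 and -0.10, those of RPL7A at -0.99 and -0.47, and those of FAU at -1.59 and -1.17. The 3 probes of RPS27 ran from -0.57 to -0.02. Probes of a gene carry the same sequence accession in the platform annotation for all 14 genes.

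**Figure D4:**
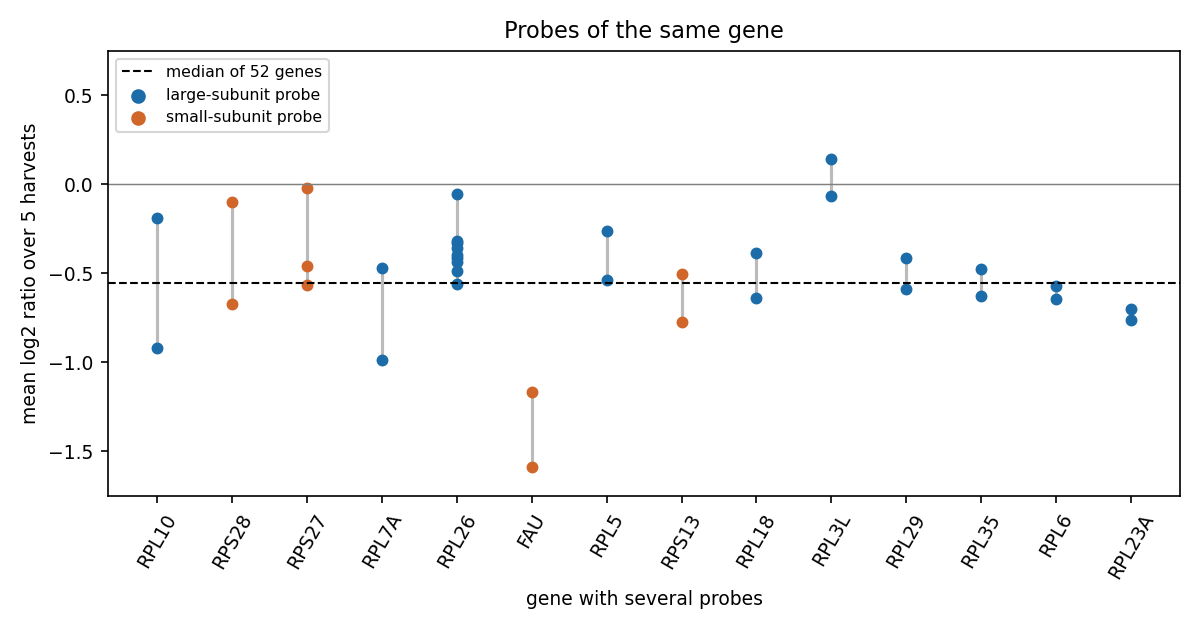
Mean log2 ratio over 5 harvests for each probe of the 14 genes with several measured probes, ordered by the distance between them. Probes of RPL10 lie 0.73 apart and those of RPL23A 0.06 apart; the dashed line is the median of 52 genes, -0.55.

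RPL26, whose protein can raise p53 synthesis, had 9 probes. Their SDs were 0.08 on the self-self array and 0.06, 0.43, 0.26, 0.05 and 0.14 at 0, 10 and 30 min, 1 h and 8 h. At 0 min they ran from -0.36 to -0.17 and at 1 h from -0.43 to -0.27, all on the negative side. At 10 min they ran from -0.89 to 0.67. The highest was a probe at 0.67 and 0.32 at 10 and 30 min that lay among the others at the remaining harvests. The 10 min array, where the band was deepest, is thus also where repeated probes of RPL26 were least alike, and the part of this spread in the result was not tested.

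Other genes of translation were taken from lists or name patterns. Their counts stand beside 25.3% of all genes called negative and 37.1% called positive, with a median of 0.14. Among 19 other mRNAs known for a TOP tract, 8 were called negative and 2 positive, with a median of -0.21. HNRNPA1, a nuclear RNA-binding protein, was at -1.25 (SE 0.17) and the elongation factor subunit EEF1D at -0.75 (SE 0.14), while EEF1A1, the main carrier of aminoacyl-tRNA, was not called at 0.22 (SE 0.12). EIF4A2, a helicase of initiation, was at 1.04 (SE 0.15) and EIF4B at 0.43 (SE 0.13). The 53 genes named for translation factors, which include kinases, binding proteins and methyltransferases of those factors, had 19 negative and 9 positive with a median of -0.15. Of 8 genes for S6 kinases and their relatives 1 was negative and 2 positive (median 0.11). RPL36AL, the only measured gene of 7 listed ribosomal proteins outside the naming rule, was not called, at -0.30 (SE 0.14).

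The ribosome of mitochondria is built from its own set of nuclear-encoded proteins. Of 42 measured genes with the prefix MRPL or MRPS, an antisense RNA gene among them, 18 were negative and 6 positive, with a median of -0.28. Their medians were -0.29, -0.70, -0.35 and -0.25 from 0 min to 1 h, beside -0.33, -0.87, -0.44 and -0.31 for the cytosolic set. At 8 h they stood at 0.09 and the cytosolic set at -0.79. Ribosome assembly genes gave 11 positive and 7 negative of 25, beside 37.1% and 25.3% of all genes. Their median was 0.18 and their 8 h median 0.43, beside 0.14 and 0.18 for all genes. In the assembly list NOP14 and DDX10, factors of pre-rRNA processing, were at 1.65 (SE 0.19) and 1.24 (SE 0.18). The rRNA methyltransferase FBL was at -1.08 (SE 0.15). No test of the differences between these lists was made.

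**Figure D5:**
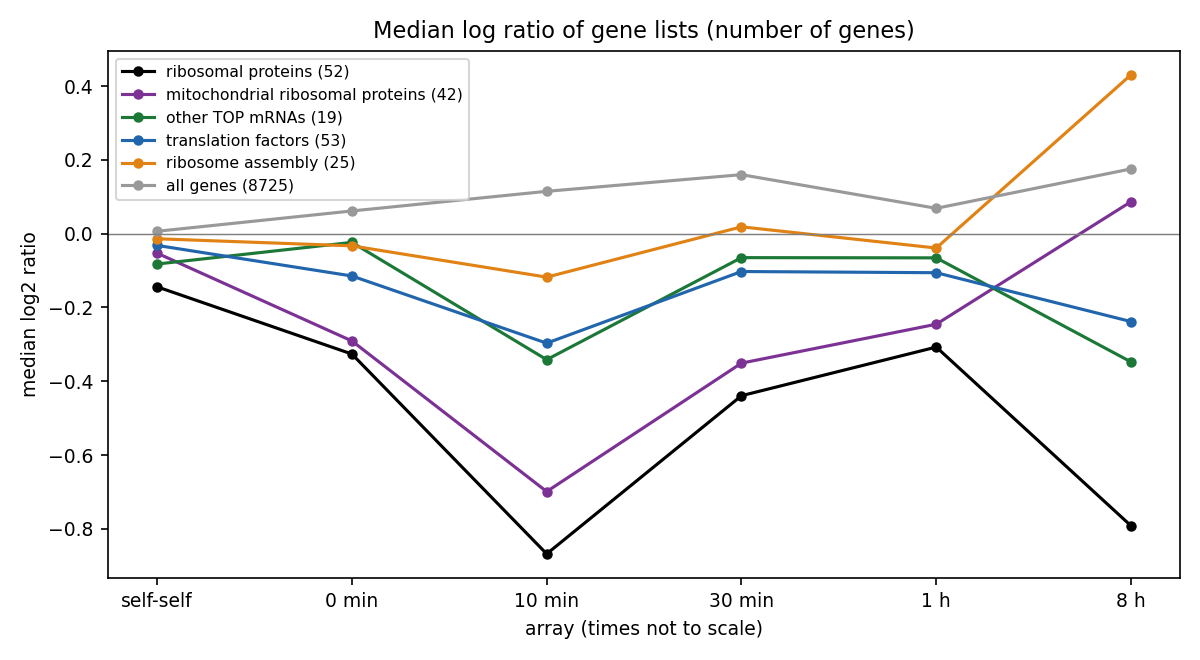
Median log2 ratio on each array for the 52 ribosomal protein genes and for the other lists, with gene numbers in the legend. At 8 h the ribosomal proteins (-0.79) and the mitochondrial ribosomal proteins (0.09) stand on different sides of 0, after similar values at 0 min (-0.33 and -0.29).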

How the data were processed

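Per the labels, background-subtracted average spot intensities of each sample were divided by those of its reference, ratios were normalised within each slide with housekeeping genes, and ratios with a quality value below 0.5 were discarded. If the housekeeping genes themselves shifted, all ratios of that array would shift with them. The deposited table holds log2 ratios; their base was inferred, because turned back to linear ratios with base 2 from 99.5% to 100% of an array's values fell within 0.05 steps of a grid of 10000 steps per unit. On every array 333 to 534 probes carry an identical number. These entries, 4 of them at ribosomal protein probes, were taken as not measured.

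Probes with 1 symbol in the platform annotation (11304; 446 have several and 2330 none; 11282 matched RefSeq by gene ID) and a value on all 6 arrays were averaged per gene. Limma 3.58.1 in R 4.3.3 estimated, for 5 harvests together, the average and the trend along centred log2(1 + min / 10) (3 residual degrees of freedom), with empirical Bayes moderation, two-sided, Benjamini-Hochberg adjusted over 8725 genes. The fit was tested on simulated data with errors independent between harvests. A dye bias or culture shared by the harvests was not simulated, so that test does not cover it. The number of arrays limits the precision.

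Members, lists and alternatives were chosen with earlier results of these data known. Genes named were 6 per side and subunit by mean, 3 per side by slope, the 5 with the most divergent probes, paralog forms with their main genes, FAU, RPS27A, RPL3 and RPL12 where measured, and the 2 genes farthest from their subunit's median on each array. Others named here (RPL5, RPL24, RPL36, RPL23, RPS19) and genes of other lists were chosen after their values were seen.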

Additional observations from a re-analysis of the deposited data

How the results depend on the processing

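The median of the ribosomal protein genes stayed negative under all alternatives run, within 1 SD over the harvests of its value. The large-subunit median minus the small-subunit median stayed positive and within 1 SD of its value under the alternatives run. The negative calls were 34 and stayed within 1.5 times of that under all alternatives run except with the self-self array in the fit, which called 0 negative and 0 positive genes. The alternative without averaging per gene counts probes, 50 of 74 negative, and is not directly comparable with 34 of 52 genes. Leaving out each harvest in turn gave 4 to 7 positive calls, beside 28.1% to 36.8% of all genes. The slope was called for no gene of the set under any alternative run with limma. Of 34 genes named by rule, RPS27L and RPS28 lost their call with self-self subtracted, RPS28 also without 10 or 30 min, RPL26 without 30 min or 8 h. Of the genes beyond the self-self range at all 5 harvests, 24 below and 4 above, scaling to equal spread left 0 and 0. That scaling widens the self-self range as well. A limit of 1 log2 unit also left 0 and 0. Keeping the repeated value gave 2 above the self-self range. The cause was not tested. A single array per harvest and the unknown numerator limit all values, and signal over background was not available for these ratios. Each array is itself a pair of treated and untreated cells of 1 harvest, apart from the self-self array, and with 1 array per harvest no further block could be fitted.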
